A study of Mus musculus with 48 samples.

Results

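The 10 genes described here encode the machinery that loads peptides onto major histocompatibility complex (MHC) class I molecules. They are the heavy chains H2-K1 and H2-D1, the light chain B2m, the peptide transporter subunits Tap1 and Tap2, the loading chaperone Tapbp, the immunoproteasome subunits Psmb8, Psmb9 and Psmb10, and the class I transactivator Nlrc5. They were taken by name from a table of 36854 mouse genes. The choice used no measured value directly, but was made with earlier results of these data known. All 10 were found in the table and passed the filter on low counts in every fit. Their RNA was counted in 48 bulk sarcomas of the hind limb in 129/SvJae mice, 32 primary tumours and 16 allografts. Primary tumours were induced in p53FL/FL mice aged 6 to 10 weeks with Adeno-Cre, an adenovirus that delivers Cre recombinase to the injected calf muscle, and 300 µg of the carcinogen methylcholanthrene (MCA). Allografts grew in the same muscle of syngeneic mice from 50000 cells of the p53/MCA sarcoma line 402230, so they model 1 line and not a set of independent tumours. Each mouse received 200 µg of muDX400, a mouse antibody to the T cell checkpoint receptor PD-1, or an isotype control, at a tumour volume of about 150 mm3. A dose of 0 or 20 Gy to the tumour-bearing limb followed at once, and tumours were taken on day 3. The 4 treatments, 0 Gy with isotype, 0 Gy with anti-PD-1, 20 Gy with isotype and 20 Gy with anti-PD-1, each had 8 primary tumours and 4 allografts.

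Class I molecules display short peptides from inside the cell to CD8 T cells. The proteasome cuts proteins into peptides, and cells exposed to interferon exchange its constitutive catalytic subunits for Psmb8, Psmb9 and Psmb10. The transporter formed by Tap1 and Tap2 carries the peptides into the endoplasmic reticulum, where Tapbp (tapasin) holds an empty heavy chain with B2m next to the transporter until a peptide binds. Nlrc5 raises transcription of most of these genes through a conserved promoter module, and Irf1 carries interferon signals to them. Tumours that lose parts of this machinery are poorly seen by CD8 T cells.

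Of the 10 genes, 7 lie on chromosome 17, 2 on chromosome 8 and 1 on chromosome 2 of the GRCm38 mouse genome. H2-K1 occupies chr17:33996017-34000347 on the minus strand and H2-D1 chr17:35262730-35267499 on the plus strand. Between them in sequence stand Psmb9 (chr17:34181987-34187764, minus strand), Tap1 (chr17:34187553-34197225, plus strand), Psmb8 (chr17:34197721-34201454, plus strand) and Tap2 (chr17:34203527-34216321, plus strand). These 4 genes fill 34.3 kb. Psmb9 and Tap1 are read in opposite directions, and in this annotation (GENCODE) their exons overlap by 212 bases. In RefSeq their starts lie apart, with a short stretch upstream of both. Tapbp lies at chr17:33915899-33929292 on the plus strand and B2m at chr2:122147686-122153083 on the plus strand. Psmb10 (chr8:105935735-105938444, minus strand) and Nlrc5 (chr8:94434356-94527272, plus strand) share chromosome 8 without being neighbours. The upstream sequences below, from RefSeq on GRCm38.p6, show what the chains of the class I molecule and the shared Psmb9 and Tap1 stretch have in common. The first 3 hold the 250 bases before the gene's RefSeq start, which for H2-D1 lies inside the span given above, and the last the 225 bases between the RefSeq starts of Psmb9 and Tap1, read on the strand of Tap1, which lie inside the span of Psmb9 given above. Capitals mark matches, on either strand, to AANNGAAA (the core of sites for interferon regulatory factors), GGGGATT (part of a kappaB site), TGACG (the core of a CRE-like site) and CCAAT (the box bound by NF-Y, which reads ATTGG on the opposite strand).
H2-K1 (chr17:34000348-34000597, minus strand): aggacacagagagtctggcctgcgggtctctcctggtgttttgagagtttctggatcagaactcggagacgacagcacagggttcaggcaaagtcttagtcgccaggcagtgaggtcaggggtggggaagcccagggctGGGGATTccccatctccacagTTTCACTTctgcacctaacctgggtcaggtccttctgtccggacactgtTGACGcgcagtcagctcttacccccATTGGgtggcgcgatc
H2-D1 (chr17:35262844-35263093, plus strand): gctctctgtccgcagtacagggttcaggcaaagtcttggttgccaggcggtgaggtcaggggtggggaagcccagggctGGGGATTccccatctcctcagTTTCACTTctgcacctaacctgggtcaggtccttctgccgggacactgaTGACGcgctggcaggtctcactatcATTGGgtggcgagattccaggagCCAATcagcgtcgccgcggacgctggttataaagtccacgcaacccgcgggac
B2m (chr2:122147437-122147686, plus strand): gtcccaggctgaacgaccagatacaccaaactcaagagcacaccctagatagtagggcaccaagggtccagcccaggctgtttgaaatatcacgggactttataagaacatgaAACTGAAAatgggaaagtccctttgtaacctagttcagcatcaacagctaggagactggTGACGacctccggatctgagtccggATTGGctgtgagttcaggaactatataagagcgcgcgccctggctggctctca
Psmb9-Tap1 (chr17:34187331-34187555, strand of Tap1): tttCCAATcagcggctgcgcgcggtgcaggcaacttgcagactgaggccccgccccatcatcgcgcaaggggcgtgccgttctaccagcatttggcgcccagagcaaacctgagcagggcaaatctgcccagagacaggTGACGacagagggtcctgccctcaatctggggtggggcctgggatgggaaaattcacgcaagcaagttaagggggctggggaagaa

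The H2-K1 and H2-D1 stretches were near copies of each other. With H2-D1 shifted by 60 bases, 166 of 190 aligned bases (87.4%) were identical, and both carried the kappaB, interferon regulatory factor, CRE-like and CCAAT matches in that order. The CRE-like match began 41 bases before the start in H2-K1 and 78 in B2m. A window of 300 bases, from 250 before to 50 after the start, was at hand for 8 of the 10 genes (not Tap2 and Nlrc5). AANNGAAA occurred in 3 of these 8 (H2-K1, H2-D1 and B2m), and in 23.9% of all 32851 mouse windows of that length. GGGGATT occurred in the 2 heavy chain windows and in 3.1% of all windows. TGACG occurred in 5 of 8 (H2-K1, H2-D1, B2m, Tap1 and Psmb9) and in 20.8% of all windows. CCAAT occurred in 6 of 8 (these 5 and Tapbp) and in 37.4% of all windows. The Tap1 and Psmb9 windows share the stretch between their starts, so their matches there are the same letters. A match is a description of these letters and not a measured binding site.

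Libraries held 31810461 to 54008259 counts, and in the tumour where each was lowest Nlrc5 still had 591 counts and B2m 30472. Trp53, which encodes p53, was counted at 20.2 to 60.7 CPM (counts scaled by library size), but the deleted exons are not separated in that count, so it checks no label. Cdkn1a, a gene raised by irradiation, stood at 28.0 to 88.6 CPM in the 0 Gy groups and at 149.1 to 468.6 CPM at 20 Gy, apart from 1 primary tumour at 78.8 CPM. All 8 mesenchymal markers of sarcoma (such as Vim and Col1a1), 16 leukocyte markers, 10 skeletal muscle markers and 6 endothelial markers were counted in all 48 tumours. All samples therefore held RNA of several cell types. In bulk RNA, fewer cells of a type and less RNA per cell cannot be told apart.

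Some tumours were the highest or the lowest of their groups for all 10 genes, though not always by a wide gap, and they bear on the results below. In the primary group given 0 Gy with isotype, tumour 4 was the highest for every one of the 10. Its H2-K1 level was 2812.8 CPM, against 416.5 to 1131.8 CPM in the other 7, and its Psmb9 level was 4.89 times the median of the others. Tapbp differed least in that tumour, at 1.62 times the median of the others. The same tumour was also highest in its group for Ptprc, the pan-leukocyte gene (146.0 CPM against at most 110.6), and Cdkn1a (85.6 against 28.0 to 51.9). Its summed leukocyte markers, at 658.7 CPM, lay within the 629.0 to 852.6 CPM of the others and under their median of 778.3 CPM. It was lowest for summed muscle markers (66.2 CPM against 140.2 to 6376.4) and for summed mesenchymal markers (19901.0 CPM against 22565.5 to 44863.1). In the primary group given 20 Gy with anti-PD-1, tumour 5 was the lowest for all 10, with H2-K1 at 518.2 CPM against 1165.2 to 3533.2 CPM. This was the tumour with Cdkn1a at 78.8 CPM, and its Ptprc (59.9 CPM against at least 84.6) was the lowest of its group. So were its summed leukocyte markers (536.6 CPM against at least 700.3), Cd8a (0.606 against 1.23), Irf1 (91.6 against 144.6) and Ifng (0.0391 against 0.0489). Its Ciita was not (8.66 CPM against a lowest of 5.26). Among the 4 allografts given 0 Gy with isotype, tumour 3 was highest and tumour 4 lowest for all 10 genes. Among those given 20 Gy with anti-PD-1, tumour 2 was lowest for all 10 while it had the group's highest Ptprc (619.8 CPM).

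**Figure D1:**
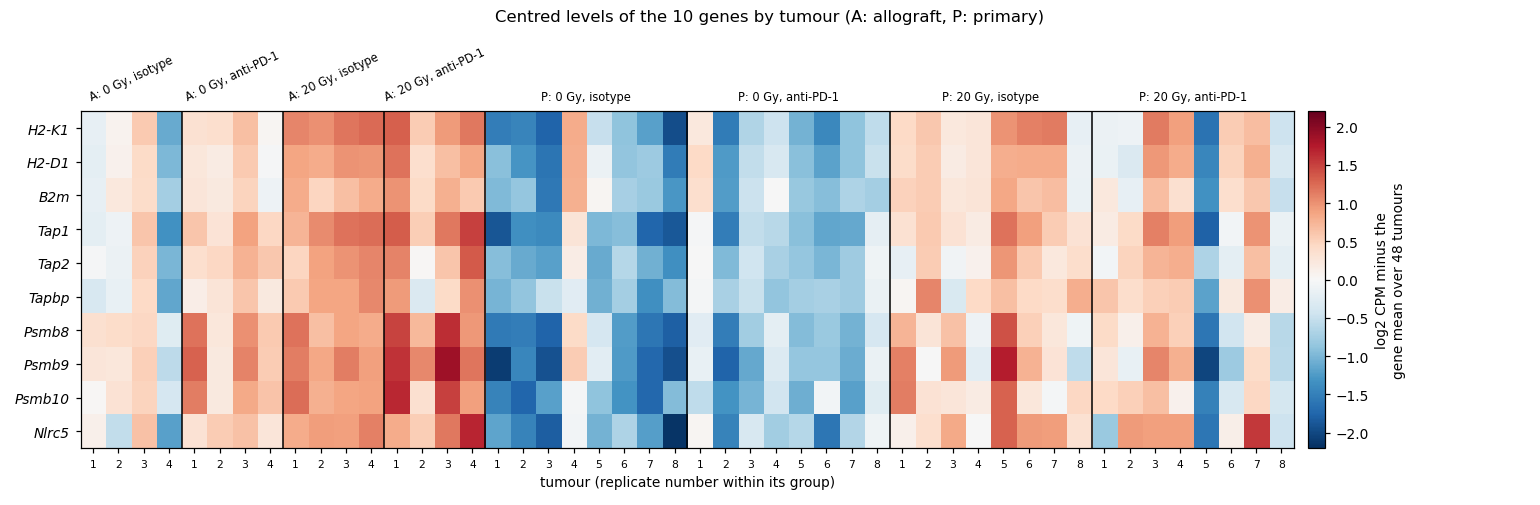
Each column is 1 of the 48 tumours and each row 1 of the 10 genes, with colour giving log2 CPM minus the gene's mean over the 48 tumours (red above, blue below). Columns change colour as a block: tumour 4 of the primary 0 Gy isotype group is the red or pale column among blue ones, and tumour 5 of the primary 20 Gy anti-PD-1 group is the blue one among red.

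Per kilobase of exon, the median levels over the 48 tumours spanned from 2741.0 CPM per kb for B2m to 7.66 CPM per kb for Nlrc5. H2-D1 (810.6) and H2-K1 (639.0 CPM per kb) followed B2m, and Tapbp stood at 134.4 CPM per kb. The 3 immunoproteasome subunits lay at 81.8 (Psmb10), 73.8 (Psmb8) and 26.4 CPM per kb (Psmb9). Tap1 lay at 41.0 CPM per kb and Tap2 at 27.9. The chains of the class I molecule itself were thus the most abundant of the 10 per length and their transactivator the least. Between the lowest and the highest tumour the level differed 5.36-fold for Tapbp and 15.6-fold for Psmb9, with the other 8 genes in between.

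**Figure D2:**
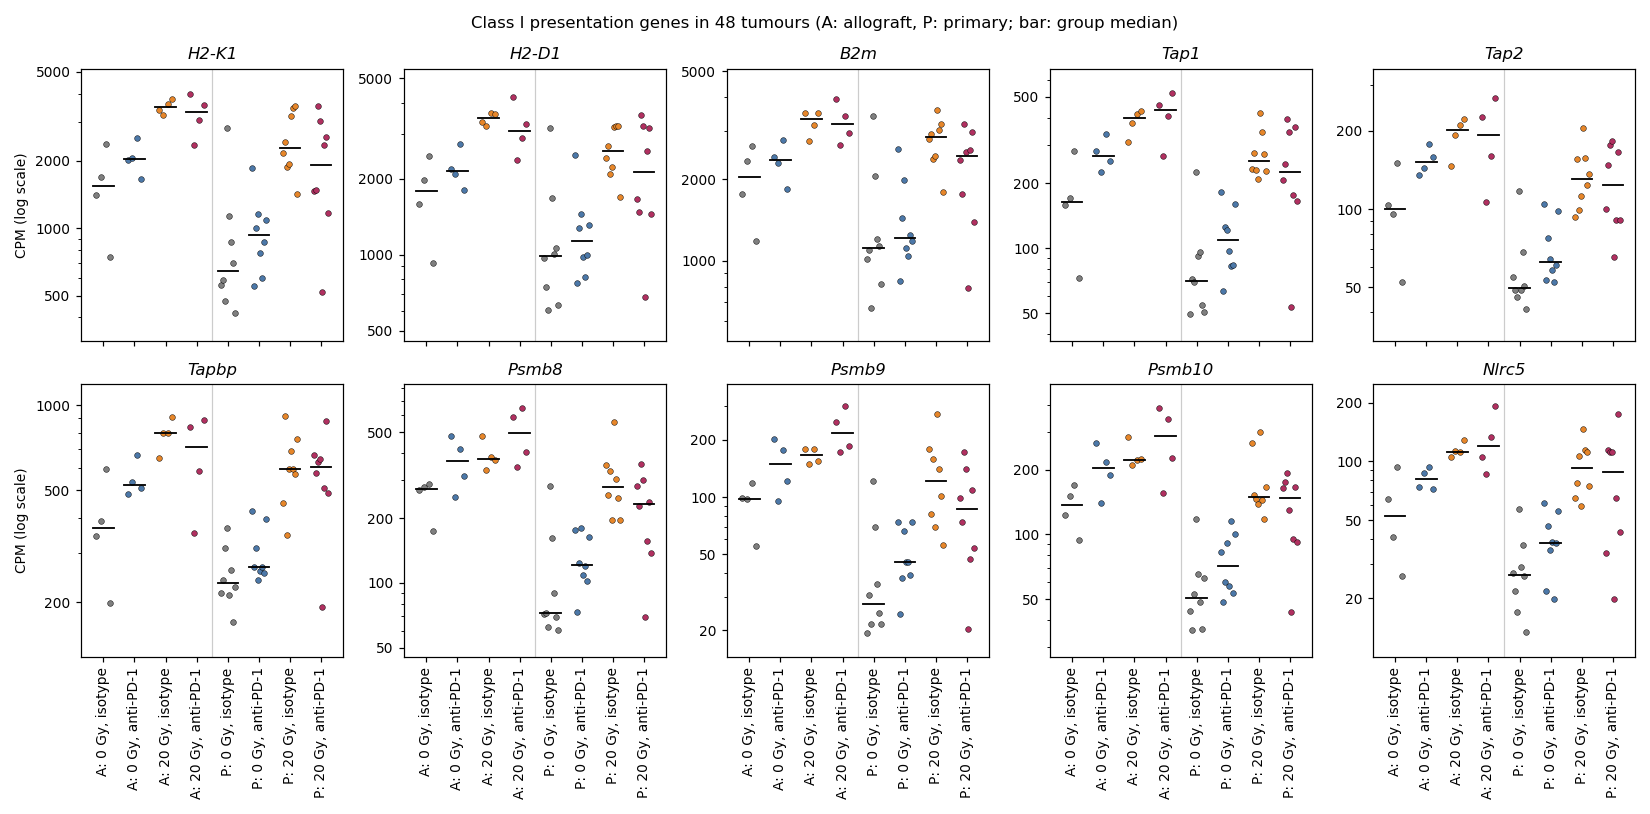
CPM of each gene (log axis) in each of the 48 tumours, by group (A, allograft, 4 tumours a group; P, primary, 8 a group), with a bar at the group median. In both tumour kinds the 20 Gy isotype points lie above most of the 0 Gy isotype points for all 10 genes. The same tumour is highest for every gene in the primary 0 Gy isotype group, and the same tumour lowest in the primary 20 Gy anti-PD-1 group.

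Ordered by mean level, the 8 groups fell alike for every gene at both ends. The allografts at 20 Gy, with either antibody, took the first 2 places for 10 of 10 genes. Primary tumours at 0 Gy took the last 2 places for 10 of 10, with the isotype group lowest each time. Neighbours in this order were not separated by their spread, since the ranges of adjacent groups overlapped in 70 of 70 pairs.

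In primary tumours that received isotype antibody, all 10 genes rose after 20 Gy, from 1.96-fold for B2m to 3.34-fold for Nlrc5. All 10 passed an adjusted p of 0.05 in edgeR's quasi-likelihood test, adjusted over all genes by Benjamini-Hochberg, the rule for every call below. Of the 17770 genes tested, 7.85% were called higher and 6.64% lower. The median log2 fold change was 1.46 for the 10 genes and -0.02 for all genes tested. Tumour 4 of the unirradiated group set the overlap of the ranges: only Nlrc5 had every irradiated tumour above every unirradiated one, as had 1.5% of all genes. With that tumour left out, 8 of 10 genes were so separated (not B2m and Psmb9), against 2.67% of all genes, the 10 calls stood, and the median log2 fold change was 1.89. Tumour 4 was singled out after its values were seen, because it was highest for all 10 genes. Its removal therefore favours their separation over that of all genes. The share of all genes called without tumour 4 is not given here.

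The heavy chains are the polymorphic part of the class I molecule that holds the peptide. H2-K1 ranged from 416.5 to 2812.8 CPM (median 642.1) at 0 Gy and from 1421.1 to 3522.5 CPM (median 2294.3) at 20 Gy, n = 8 each. Apart from tumour 4, every unirradiated tumour lay below every irradiated one. The log2 fold change was 1.42 ± 0.37 (SE, edgeR adjusted p = 0.00891). H2-D1 ranged from 604.3 to 3194.0 CPM (median 986.8) at 0 Gy and from 1686.7 to 3251.3 CPM (median 2567.9) at 20 Gy, a log2 fold change of 1.09 ± 0.33 (edgeR adjusted p = 0.0241). B2m, the invariant light chain that all class I heavy chains need at the cell surface, ranged from 670.5 to 3424.2 CPM (median 1111.7) at 0 Gy and from 1793.2 to 3597.3 CPM (median 2870.6) at 20 Gy. Its log2 fold change, 0.97 ± 0.30 (edgeR adjusted p = 0.0247), was the smallest of the 10. H2-K1 and H2-D1 are near copies, and reads that fit several class I genes may have been left out of the counts or assigned among these genes. Summed with 14 listed H2-K, H2-Q, H2-T and H2-M genes to 1 feature, H2-K1 and H2-D1 rose by 1.39 on the log2 scale (edgeR adjusted p = 0.00825). The sum does not restore reads that were left out.

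The transporter subunits and the loading chaperone rose too, from 1.2 (Tap2) to 1.65 (Tap1) on the log2 scale. Tap1, which with Tap2 binds and moves the peptide, ranged from 49.5 to 223.9 CPM (median 70.8) at 0 Gy and from 208.9 to 419.5 CPM (median 252.2) at 20 Gy, a log2 fold change of 1.65 ± 0.32 (edgeR adjusted p = 0.000786). Tap2 ranged from 41.3 to 117.1 CPM (median 49.7) at 0 Gy and from 93.2 to 205.0 CPM (median 130.1) at 20 Gy, a log2 fold change of 1.2 ± 0.23 (edgeR adjusted p = 0.000634). Tapbp ranged from 171.1 to 368.2 CPM (median 233.5) at 0 Gy and from 347.8 to 917.5 CPM (median 595.8) at 20 Gy. Its log2 fold change of 1.31 ± 0.22 had the smallest adjusted p of the 10 (edgeR, 0.000158). For Tap1 and Tapbp, 7 of 8 irradiated tumours lay above the highest unirradiated one. Tapbp shares 149 exon bases with Zbtb22 on the same strand, so reads from these bases cannot be told apart. Whether the counting used strand is not given in the sources used here, so reads may also be shared where exons overlap on opposite strands. This touches 904 of the 3628 exon bases of Tapbp (with Gm19412), 533 and 165 of the 3781 of Tap2 (with Gm15821 and Gm20496) and 498 of the 3381 of Psmb8 (with Gm20496).

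The 3 immunoproteasome subunits replace the constitutive catalytic subunits and shift cleavage toward peptides that fit class I molecules. Psmb8 ranged from 60.6 to 281.9 CPM (median 72.4) at 0 Gy and from 195.0 to 557.6 CPM (median 278.8) at 20 Gy, a log2 fold change of 1.5 ± 0.32 (edgeR adjusted p = 0.00195). Psmb9 ranged from 19.4 to 121.4 CPM (median 27.7) at 0 Gy and from 55.8 to 272.0 CPM (median 121.2) at 20 Gy, a log2 fold change of 1.64 ± 0.41 (edgeR adjusted p = 0.00699). Its ranges overlapped through 2 unirradiated tumours, at 70.0 and 121.4 CPM, that lay among the irradiated ones. Psmb10 ranged from 36.1 to 118.4 CPM (median 50.8) at 0 Gy and from 118.2 to 297.4 CPM (median 149.3) at 20 Gy, a log2 fold change of 1.63 ± 0.28 (edgeR adjusted p = 0.0002). Its ranges overlapped only by the highest unirradiated tumour, tumour 4, against the lowest irradiated one. Reads from the 212 exon bases that Psmb9 and Tap1 share on opposite strands may likewise belong to either gene.

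Nlrc5, the transactivator, ranged from 13.4 to 57.1 CPM (median 26.4) at 0 Gy and from 59.2 to 147.2 CPM (median 92.1) at 20 Gy, with no overlap. Its log2 fold change of 1.74 ± 0.35 (edgeR adjusted p = 0.000999) was the largest of the 10. Other cell types moved in the same comparison: 3 of 16 leukocyte markers were called higher (Itgax 2.03, Ptprc 1.09 and Itgam 0.84 on the log2 scale) and none lower. The summed leukocyte markers ranged from 629.0 to 852.6 CPM at 0 Gy and from 652.2 to 1488.6 CPM at 20 Gy. Log2 fold changes over that list ran from -0.37 to 2.72 with a median of 0.84. The summed muscle markers ranged from 66.2 to 6376.4 CPM at 0 Gy and from 301.7 to 47322.5 CPM at 20 Gy. All muscle estimates were above 0, from 1.26 to 2.54 with a median of 2.13, but 0 of 10 were called by edgeR or DESeq2 and none had an unadjusted p under 0.05. Of 8 mesenchymal sarcoma markers 1 was called lower, Vim (-0.72, edgeR adjusted p = 0.0124), with a list median of -0.45. The part of these markers in the result was not tested. Without the primary tumours whose muscle sum exceeded 40000 CPM, a limit chosen after seeing the data, all 10 genes were called. Their log2 fold changes ran from 1.05 to 1.86, and the share of all genes called in that fit is not given here.

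Under anti-PD-1, 4 of the 10 genes rose with dose in primary tumours: Tap1, Tap2, Tapbp and Nlrc5. Of all genes tested, 6.06% were called higher and 1.86% lower. All 10 estimates were above 0, with a median log2 fold change of 0.84. Tapbp went from 239.6 to 423.4 CPM (median 266.8) at 0 Gy to 193.3 to 880.3 CPM (median 602.7) at 20 Gy, a log2 fold change of 0.94 ± 0.21 (edgeR adjusted p = 0.00728). Tap2 went from 52.4 to 104.4 CPM (median 62.5) to 65.5 to 181.9 CPM (median 124.2), a log2 fold change of 0.85 ± 0.23 (edgeR adjusted p = 0.019). Tap1 went from 63.6 to 180.9 CPM (median 109.1) to 53.5 to 393.4 CPM (median 225.9), a log2 fold change of 1.1 ± 0.32 (edgeR adjusted p = 0.0288). In each of these the lowest irradiated tumour was tumour 5, which fell within or under the unirradiated range. Nlrc5 went from 19.8 to 61.5 CPM (median 38.5) to 19.8 to 174.9 CPM (median 88.6), a log2 fold change of 1.1 ± 0.34 (edgeR adjusted p = 0.0424).

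The other 6 genes did not pass in that comparison. H2-K1, at 554.1 to 1870.2 CPM (median 938.0) without and 518.2 to 3533.2 CPM (median 1925.2) with irradiation, had a log2 fold change of 1.04 ± 0.36 (edgeR adjusted p = 0.0756). B2m, at 843.0 to 2576.5 CPM (median 1209.9) and 792.1 to 3180.1 CPM (median 2435.9), had 0.63 (edgeR adjusted p = 0.187). H2-D1 had 0.84, Psmb8 0.77, Psmb9 0.83 and Psmb10 0.81, with edgeR adjusted p from 0.0613 to 0.205. No gene of the 10 had separate ranges, against 0.293% of all genes. Without tumour 5, 7 of 10 were called with a median of 0.98, and Tapbp alone had separate ranges, against 1.21% of all genes. That tumour was singled out after its values were seen, as the lowest for all 10 genes, so its removal favours them over all genes. Leaving out tumour 4 of the irradiated group lowered the calls among the 10 to 1. Leaving out tumours 3 or 7 of that group or tumours 2, 5 or 7 of the unirradiated group lowered them to 2. The share of all genes called without each tumour is not given here. Itgax was the 1 leukocyte marker of 16 called higher (1.51), and Vim the 1 mesenchymal marker of 8 called lower (-0.76, edgeR adjusted p = 0.0157). The summed leukocyte markers ranged from 499.2 to 1005.9 CPM at 0 Gy and from 536.6 to 2346.0 CPM at 20 Gy, and their part in the result was not tested. Muscle markers had a median log2 fold change of 2.78, with 0 of 10 called by edgeR, 3 by DESeq2 and 8 under an unadjusted p of 0.05, and without the tumours above 40000 CPM of muscle markers 2 of the 10 genes were called.

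In the allografts, H2-K1, H2-D1 and Tap1 rose after 20 Gy with isotype, and all 10 estimates were positive, from 0.66 (Psmb8) to 1.2 (Tap1) on the log2 scale with a median of 0.99. Of 17746 genes tested, 4.4% were called higher and 0.744% lower, and the median over all genes was 0.0. H2-K1 stood at 1409.4, 1692.0, 2386.3 and 741.0 CPM in the 4 unirradiated tumours and at 3366.8, 3201.8, 3604.3 and 3788.3 CPM in the 4 irradiated ones. All 4 irradiated tumours were above all 4 unirradiated ones, and the log2 fold change was 1.19 ± 0.29 (edgeR adjusted p = 0.0286). H2-D1 stood at 1592.5, 1973.3, 2472.4 and 923.6 CPM against 3358.8, 3230.1, 3635.4 and 3605.4 CPM, again without overlap, with a log2 fold change of 1.02 ± 0.27 (edgeR adjusted p = 0.0411). Tap1 stood at 157.7, 170.5, 280.8 and 72.7 CPM against 309.4, 379.3, 418.2 and 428.6 CPM, with a log2 fold change of 1.2 ± 0.32 (edgeR adjusted p = 0.0419). The irradiated tumours lay close together for these genes, while the unirradiated ones spread about their tumours 3 and 4.

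The remaining 7 genes did not pass, with edgeR adjusted p from 0.0643 (Psmb9) to 0.139 (Psmb8), although every one of the 10 had an unadjusted p under 0.05. Nlrc5 stood at 64.2, 41.1, 93.5 and 26.0 CPM at 0 Gy and at 105.2, 113.4, 111.4 and 128.9 CPM at 20 Gy, without overlap and with a log2 fold change of 1.05 ± 0.33 (edgeR adjusted p = 0.0787). B2m stood at 1754.0, 2326.6, 2642.5 and 1179.5 CPM against 3491.2, 2754.4, 3161.7 and 3500.9 CPM, a log2 fold change of 0.73 ± 0.24 (edgeR adjusted p = 0.0956). Psmb8 stood at 269.4, 278.6, 287.4 and 175.0 CPM against 481.6, 333.7, 383.5 and 370.0 CPM. In 9 of 10 genes every irradiated tumour was above every unirradiated one, against 9.59% of all genes. Tap2 was the exception, through the 150.1 CPM of unirradiated tumour 3 against a lowest irradiated value of 146.6 CPM.

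The count of calls in this comparison rested on single allografts. Without tumour 3 of the unirradiated group 8 of 10 genes were called and all 10 had separate ranges (14.9% of all genes). That tumour, the highest of its group for all 10 genes, was singled out after its values were seen, so its removal favours them over all genes. Without tumour 2 of the irradiated group 1 was called, and without any other of the 8 tumours 0 were, with medians between 0.77 and 1.07. The medians stayed above 0 in each case, and the share of all genes called is not given for these fits. The animals were also unevenly spread: identifiers began with 5 in 4 of 4 unirradiated and 1 of 4 irradiated mice, and Xist, the RNA of the silenced X chromosome, exceeded 10 CPM in 1 and 3 of them. With either as a covariate no gene of the 10 was called, while the median log2 fold change was 0.97 with Xist and 0.93 with the digit, against 0.99 without them. Calls over all genes fell with each covariate too, as given in the last section, so the loss was not particular to the 10. Of 16 leukocyte markers 3 were called higher (Ptprc 1.59, Itgax 1.83 and Ncr1 1.24) and none lower. Estimates over that list ran from -1.75 to 1.83 with a median of 0.27, so not all of its genes rose. The sum of the 16 ranged from 515.2 to 1099.0 CPM without and from 1154.3 to 1449.6 CPM with irradiation, which do not overlap. The endothelial marker Kdr was called higher too (1.22, edgeR adjusted p = 0.0204), 1 of 6 on that list. Their part in the result was not tested.

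Under anti-PD-1, no gene of the 10 passed the dose comparison in allografts, where 3.13% of all genes were called higher and 0.828% lower. The log2 fold changes ran from 0.30 to 0.68 with a median of 0.52, edgeR adjusted p ran from 0.181 to 0.656, 2 genes had an unadjusted p under 0.05, and DESeq2 called 0. H2-K1 stood at 2011.3, 2065.9, 2539.6 and 1654.4 CPM at 0 Gy and at 3982.9, 2362.7, 3048.2 and 3569.9 CPM at 20 Gy. Only the irradiated tumour 2 fell inside the unirradiated range. Tap1 stood at 281.7, 225.4, 337.1 and 252.9 CPM against 460.6, 267.0, 408.6 and 519.8 CPM, and Nlrc5 at 74.3, 87.7, 93.3 and 71.9 CPM against 105.2, 86.6, 133.8 and 191.5 CPM. Tumour 2 was again the one within the unirradiated range for both. No gene of the 10 had separate ranges, against 5.83% of all genes. Of 16 leukocyte markers 3 were called higher here (Ptprc 1.47, Itgax 1.65 and Ncr1 1.48), while estimates over that list ran from -1.25 to 1.65 with a median of 0.34.

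**Figure D3:**
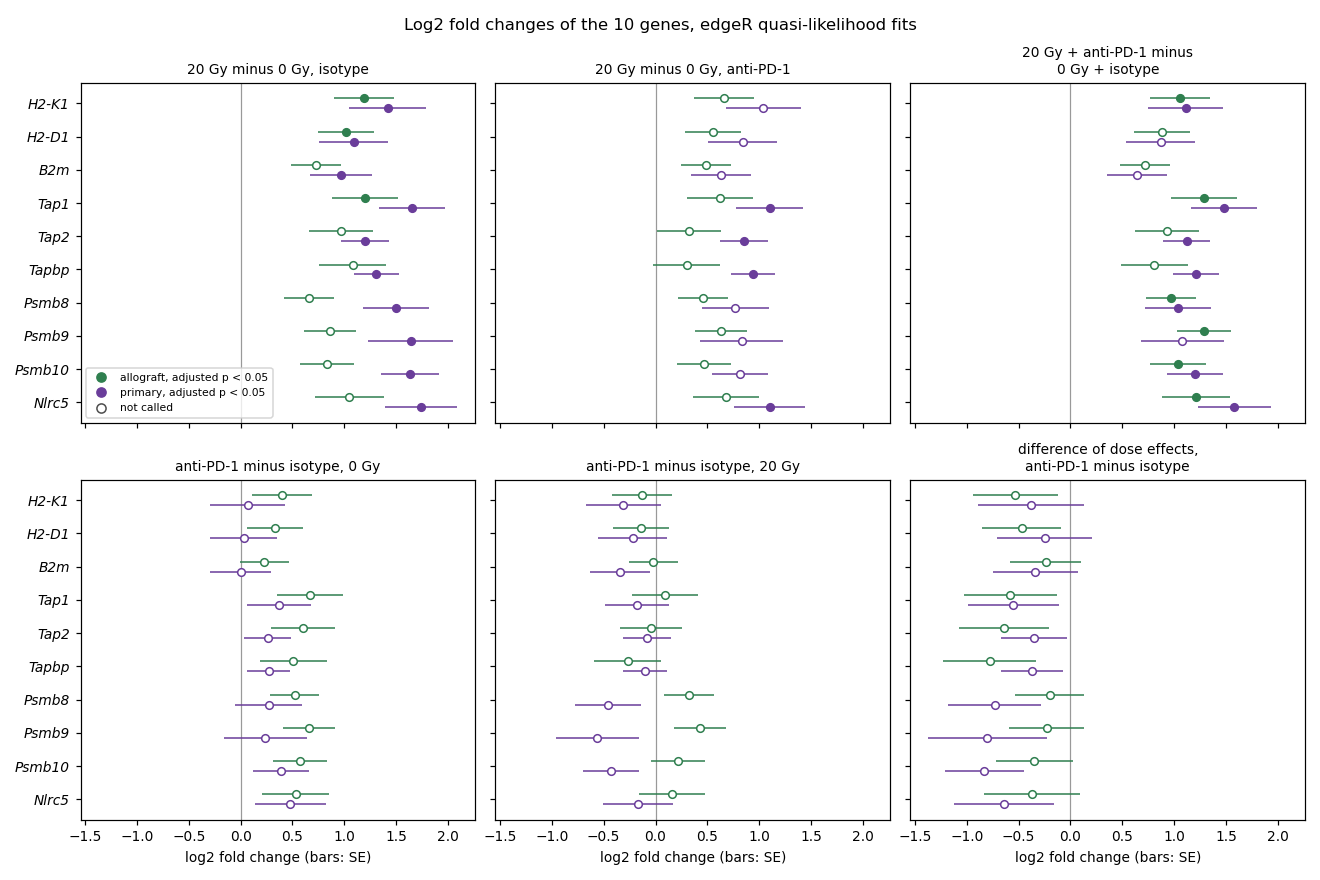
Log2 fold change (points) with its SE (bars) for the 10 genes in the comparisons named above each panel, allografts in green and primary tumours in purple, filled where the adjusted p was under 0.05. Dose estimates are all above 0 in both kinds, with every primary isotype point filled, while antibody estimates lie on both sides of 0 with no filled point.

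Anti-PD-1 alone was not associated with a called change in any of the 10 genes. In unirradiated primary tumours the log2 fold changes against isotype ran from 0.00 (B2m) to 0.48 (Nlrc5) with a median of 0.27, no unadjusted p under 0.05, and adjusted p of 1.0 throughout. In irradiated primary tumours they ran from -0.56 (Psmb9) to -0.08 (Tap2) with a median of -0.26. In unirradiated allografts they ran from 0.23 to 0.67 with a median of 0.52. Psmb8, Psmb9 and Psmb10, at 0.52, 0.66 and 0.57, were the 3 of 10 with an unadjusted p under 0.05 there. Psmb9 stood at 98.7, 97.9, 118.4 and 55.4 CPM with isotype and at 201.4, 95.4, 176.3 and 121.2 CPM with anti-PD-1, so the groups overlapped at the low end of the latter. In irradiated allografts the estimates ran from -0.27 (Tapbp) to 0.43 (Psmb9), none with an unadjusted p under 0.05. In each of these 4 comparisons edgeR called 0.0% of all genes and 0 of the 10, and DESeq2 also called 0 of the 10.

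Irradiated tumours with anti-PD-1 were also set against unirradiated ones with isotype, a comparison that shares tumours with those above. In primary tumours 7 of 10 genes rose, among 8.78% of all genes called higher and 4.98% called lower. Tapbp rose by 1.21 ± 0.22 (edgeR adjusted p = 0.000442), Tap2 by 1.12 ± 0.23 (0.00151) and Nlrc5 by 1.58 ± 0.35 (0.00273) on the log2 scale. Tap1, Psmb10, Psmb8 and H2-K1 rose as well, while Psmb9 (1.08, edgeR adjusted p = 0.0709), H2-D1 (0.87, 0.0721) and B2m (0.64, 0.144) did not pass. In allografts 6 of 10 rose, among 7.43% of all genes called higher and 2.23% called lower. Psmb9 went from the 55.4 to 118.4 CPM of the unirradiated isotype tumours to 248.1, 172.1, 301.6 and 185.7 CPM, a log2 fold change of 1.29 ± 0.26 (edgeR adjusted p = 0.00578). It was separate in range, as were Psmb8 and B2m, 3 of the 10, against 8.94% of all genes. Psmb8 (0.97 ± 0.24), Tap1 (1.29 ± 0.32), Psmb10 (1.04 ± 0.27), Nlrc5 (1.21 ± 0.33) and H2-K1 (1.06 ± 0.29) were the other 5 called. Without tumour 3 of the unirradiated allografts, the highest of its group for all 10 genes, 10 were called. Without tumours 1 or 4 of that group or tumour 3 of the irradiated group 2 were called, and without tumour 2 of the unirradiated group 3 were. Leaving out single primary tumours gave 5 to 10 calls. The shares of all genes called with a tumour left out are not given here.

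Markers of other cells moved in this comparison as well. In allografts 6 of 16 leukocyte markers were called higher, led by Ptprc (1.87), Ncr1 (1.93) and Itgam (1.48), and their sum went from 515.2 to 1099.0 CPM to 1344.3 to 2196.1 CPM, without overlap. Kdr was the 1 endothelial marker of 6 called higher (0.92, edgeR adjusted p = 0.0477). In primary tumours 3 of 16 leukocyte markers were called higher (Itgax 1.98, Itgam 1.05 and Ptprc 1.08), while Vim was called lower (-0.82, edgeR adjusted p = 0.00534), 1 of 8 mesenchymal markers. Muscle markers had a median log2 fold change of 2.89 there, with 0 of 10 called by edgeR, 7 by DESeq2 and 9 under an unadjusted p of 0.05. The part of these markers in the result was not tested.

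Whether dose acted differently under the 2 antibodies was tested as an interaction. The estimates were below 0 for all 10 genes in both kinds, meaning a smaller dose difference under anti-PD-1, but none passed. In primary tumours they ran from -0.83 (Psmb10, unadjusted p = 0.0378, the 1 under 0.05) to -0.25 with a median of -0.47, and edgeR adjusted p from 0.971 to 0.977. In allografts they ran from -0.78 (Tapbp) to -0.20 (Psmb8) with a median of -0.42, edgeR adjusted p from 0.864 to 0.9 and no unadjusted p under 0.05. For both interactions edgeR called 0.0% of all genes and 0 of the 10, and DESeq2 called 0 of the 10. The 10 calls under isotype and 4 under anti-PD-1 in primary tumours are therefore not shown to differ.

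Primary tumours and allografts were compared without irradiation or anti-PD-1, and the estimates were lower in primary tumours. Among tumours given 0 Gy with isotype, all 10 log2 fold changes were negative, from -1.23 (Psmb8) to -0.48 (B2m) with a median of -0.86. Psmb10 was the 1 gene called lower, with 36.1 to 118.4 CPM in primary tumours against 123.3, 151.3, 170.0 and 93.9 CPM in allografts (-1.22 ± 0.28, edgeR adjusted p = 0.0166). Of all genes, 3.99% were called lower and 6.03% higher in primary tumours. Psmb8 (-1.23 ± 0.39, edgeR adjusted p = 0.063) did not pass, nor did the other 8, and 7 of 10 had an unadjusted p under 0.05. With primary tumour 4 left out 7 of 10 were called, with a median of -1.2, and with allograft 2 or 3 left out none was. Primary tumour 4 was the highest of its group for all 10 genes, and the share of all genes called without it is not given here. T cell markers stood lower in primary tumours too (Cd3d -2.26, Cd8a -2.19 and Cd3e -1.78), 5 of 16 leukocyte markers being called lower and 1 higher, and Ifng differed by -2.86 (edgeR adjusted p = 0.0227). Mesenchymal markers stood higher, with 3 of 8 called (Col1a2 1.67, Fn1 1.65 and Pdgfrb 1.15). Their part in the result was not tested, and the mouse identifiers' first digit differed completely between these groups, so it cannot be told apart from tumour kind.

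The dose differences of the 2 tumour kinds were compared directly in a fit of all 48 tumours. With isotype, the primary minus allograft dose difference ran from 0.08 (H2-D1) to 0.85 (Psmb8) with a median of 0.36 and edgeR adjusted p from 0.533 to 0.957. With anti-PD-1 it ran from 0.14 to 0.65, also with a median of 0.36. The antibody difference at 0 Gy ran from -0.44 to -0.07 with a median of -0.29. edgeR called none of the 10 in these 3 tests, none had an unadjusted p under 0.05, and DESeq2 called 0 of the 10. Over all genes the calls were 0.00517% for dose with isotype, 0.0% for dose with anti-PD-1 and 0.0% for antibody.

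Each immunoproteasome subunit was also set against the constitutive subunit whose place it takes, as a ratio of CPM within each tumour, which does not depend on library scaling. In primary tumours with isotype, Psmb8 over Psmb5 was 1.18 to 4.09 (median 1.77) at 0 Gy and 4.07 to 9.06 (median 5.16) at 20 Gy. Psmb9 over Psmb6 was 0.1 to 0.468 (median 0.17) at 0 Gy and 0.358 to 1.01 (median 0.631) at 20 Gy. Psmb10 over Psmb7 was 0.196 to 0.664 (median 0.344) at 0 Gy and 0.826 to 1.74 (median 1.1) at 20 Gy. Psmb10 over Psmb7 was separate in range, with every irradiated tumour above every unirradiated one, while the other pairs overlapped. The same ratio was separate in allografts with isotype, at 0.644 to 1.18 (median 0.933) without and 1.65 to 1.79 (median 1.75) with irradiation. Psmb8 over Psmb5 had medians of 5.14 and 7.91 in those groups, and Psmb9 over Psmb6 of 0.453 and 0.942. With anti-PD-1, Psmb10 over Psmb7 overlapped between doses in both kinds. It was 0.36 to 0.696 (median 0.463) without and 0.341 to 1.3 (median 0.805) with irradiation in primary tumours, and 1.25 to 1.54 (median 1.37) and 1.12 to 2.17 (median 2.04) in allografts. None of the 14 constitutive core proteasome genes was called in any dose comparison within a kind and antibody by edgeR, with medians of -0.09 in allografts and 0.19 in primary tumours with isotype, nor under any other setting, DESeq2 included, and none had an unadjusted p under 0.05.

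**Figure D4:**
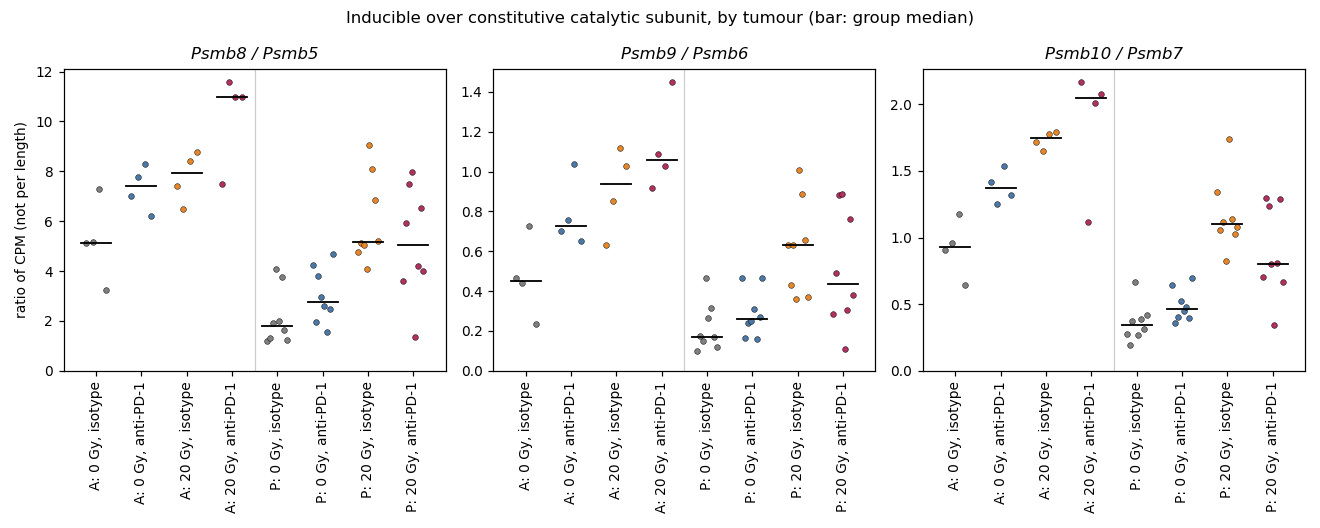
Ratio of CPM, not per length, of Psmb8 to Psmb5, Psmb9 to Psmb6 and Psmb10 to Psmb7 in each tumour, by group (A, allograft; P, primary), with a bar at the group median and axes that start at 0. In primary tumours with isotype the median of Psmb10 to Psmb7 is 0.344 at 0 Gy and 1.1 at 20 Gy, and the points of these groups do not overlap.

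Ratios within pairs of the 10 genes were described in the same way. H2-K1 over H2-D1 had a median of 0.728 (0.579 to 0.881) in unirradiated and 0.898 (0.843 to 1.08) in irradiated primary tumours with isotype. In allografts it had a median of 0.871 (0.802 to 0.965) without and 0.997 (0.991 to 1.05) with irradiation, which do not overlap. Tap1 over Tap2 had medians of 1.44 and 2.12 in the primary groups and of 1.65 (1.39 to 1.87) and 1.98 (1.93 to 2.11) in the allograft groups, the latter without overlap. H2-D1 over B2m, with medians of 0.87 and 0.922, and Tap1 over Psmb9, with 2.35 and 2.55, overlapped between doses in primary tumours with isotype. With anti-PD-1, H2-K1 over H2-D1 overlapped between doses in allografts (0.916 to 0.987 against 0.946 to 1.08) and in primary tumours (0.718 to 0.868 against 0.765 to 1.01), and so did Tap1 over Tap2 in both. These ratios are of CPM, were not tested, and those of H2-K1 and H2-D1 carry the uncertainty of shared reads.

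Other genes of the pathway were counted from fixed lists. Among 17 further class I heavy chains and relatives, of which 14 were tested, 9 rose with dose in primary tumours with isotype (median log2 fold change 1.6), led by H2-T24 at 2.00, H2-K2 at 2.03 and H2-T23 at 2.01. In allografts with isotype 9 rose as well (median 1.12), led by H2-K2 at 1.41, H2-T10 at 1.11 and H2-T24 at 2.28. Across settings and left-out tumours the isotype counts ran from 8 to 10 in primary tumours and from 2 to 9 in allografts. Under anti-PD-1, 3 rose in primary tumours and 4 in allografts (0 to 8 across settings). Mr1, Cd1d1 and Fcgrt, class I relatives that present other ligands or carry antibodies, had -0.19 to 0.01 in primary tumours with isotype and were not called.

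Of 10 genes for peptide trimming and loading, 4 rose with dose in primary tumours with isotype. They included Tapbpl, a tapasin relative that edits peptides (1.2), and Psme1 and Psme2, the interferon-induced proteasome activator subunits (0.98 and 1.12). In allografts with isotype edgeR called none of this list (3 had an unadjusted p under 0.05, and DESeq2 called 0), with estimates from -0.03 to 0.77. In primary tumours with anti-PD-1 Tapbpl alone was called (0.84), and in allografts with anti-PD-1 edgeR and DESeq2 called 0, with 2 under an unadjusted p of 0.05.

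Of 15 regulators of class I transcription, 6 rose in primary tumours with isotype, among them Stat2 (1.73), Irf9 (1.04) and Irf1 (1.51), which carry interferon signals to the nucleus or act on genes there. In allografts with isotype 3 rose, Irf9 (1.17), Stat2 (1.63) and Irf8 (1.1), while Irf1 had 0.93 (edgeR adjusted p = 0.0617). Ciita, the class II counterpart of Nlrc5, had 1.18 in primary tumours with isotype (edgeR adjusted p = 0.234) and 0.80 in allografts (0.349). Under anti-PD-1, 5 rose in primary tumours, led by Stat2 (1.37), Irf2 (0.7) and Relb (0.58), and 1 in allografts (Irf9, 0.87). Across settings and left-out tumours the isotype counts ran from 5 to 6 in primary tumours and from 2 to 6 in allografts.

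Interferon gamma itself was counted at low levels, from 0.0227 to 2.83 CPM in primary tumours and from 0.269 to 5.33 CPM in allografts. Ifng had a log2 fold change with dose of 2.29 in primary tumours with isotype (edgeR adjusted p = 0.0586) and 0.92 in allografts with isotype (0.413), neither passing. It rose in primary tumours when 20 Gy plus anti-PD-1 was set against 0 Gy plus isotype (2.66, edgeR adjusted p = 0.0302). Of the list of 10 interferon, receptor and signalling genes, 5 rose in primary tumours with isotype and 2 in allografts with isotype, where the count ran from 0 to 5 across settings. Cd8a, which marks the T cells that read class I, did not pass with dose in primary tumours (0.44, edgeR adjusted p = 0.7) or allografts (0.12, 0.921) with isotype.

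**Figure D5:**
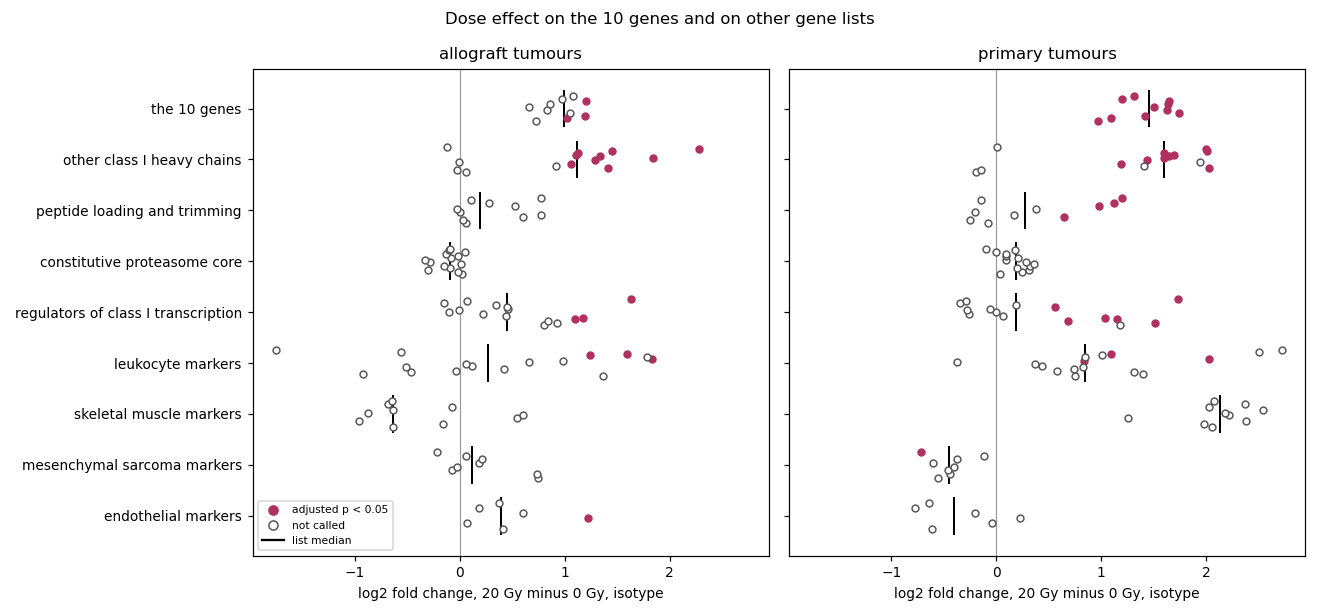
Log2 fold change of 20 Gy against 0 Gy with isotype for each gene (point) of the 10 and of the other lists, in allografts and primary tumours, filled where the adjusted p was under 0.05. Lines mark list medians, which in primary tumours are 1.46 for the 10 genes, 1.6 for the other class I heavy chains and 0.19 for the constitutive proteasome core.

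Across the 48 tumours the 10 genes followed one another. The root mean square difference of centred log2 CPM between a gene and the mean of the 10 ran from 0.203 (Tap1) to 0.39 (Psmb9). Among 11708 other genes the median of the same measure was 0.939, and the 5 nearest were Gm11131 (0.25), Tapbpl (0.321), H2-T22 (0.333), Trafd1 (0.337) and H2-Q4 (0.339). Each of the 10 genes is itself part of that mean, which lowers its difference, while the other genes are not. The mean had an SD of 0.831 over the tumours, about what a gene that does not vary would score. These values describe 48 tumours that differ in kind, dose and antibody and share those group differences.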

How the data were processed

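The authors deposited 1 table of raw counts, whole numbers per Ensembl gene, for 36854 genes and 48 tumours. Per the labels' protocols, RNA with an integrity number above 7 was made into strand-marked poly(A) libraries. Trimmomatic 0.36, STAR, HTSeq and the build mm10 are named in the submitters' processing notes, and the strand setting of the counting is not given in the sources used here. Every column was matched to its sample by name. Of the genes, 36796 were matched to a symbol in the GENCODE M21 annotation and 58 were not. The 10 genes, the other lists and the tests were chosen with earlier results of these data known.

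Counts were filtered (filterByExpr by group), scaled (TMM) and tested with edgeR 4.0.16 quasi-likelihood F tests in R 4.3.3. Separate fits held the 16 allografts (17746 genes), the 32 primary tumours (17770), the 12 tumours given 0 Gy with isotype (17357), and all 48 for interactions with tumour kind (19327). P-values were adjusted over every gene in the fit (Benjamini-Hochberg). Calls were made at an adjusted p under 0.05, and SE is the fold change over the square root of F. Levels are CPM on the TMM-scaled library sizes, 31810461 to 54008259 counts each. Replicate numbers follow deposit order and only name tumours. Each p-value sets a difference against the spread between these tumours, which for the allografts is a spread between mice given the same line.

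The 10 genes were named in every comparison. From each other list, up to 3 called genes with the smallest p and at least 5 CPM in the higher group were named, and Ptprc, Cd8a, Irf1, Ifng and Ciita whatever their values. A further gene is not reported here and was left out of the lists and of the nearest genes. Cdkn1a, Trp53, Mr1, Cd1d1, Fcgrt and Ncr1 fell outside that rule and were named after their values were seen. The nearest genes needed a mean of at least 5 CPM, and 0.5 CPM was added before the log2 for that measure alone. Alternatives were DESeq2 1.42.0, its size factors in edgeR, no filter, other sets of samples, covariates and leaving out each tumour. The test was tried on simulated data with known changes: in the allograft dose comparison with isotype (17746 genes) 44 of 100 genes with a log2 change of 1 and 93 of 100 with 2 were called, and in the primary one (17770 genes) 74 and 95 of 100. Only those genes changed in the simulation, all with a mean above 5 CPM, and genes varied independently, unlike in the tumours. The rates are therefore not the power of the comparisons made here.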

Additional observations from a re-analysis of the deposited data

Results flagged for a closer look

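A tumour far from the rest of its group was looked for in each of the 10 genes and 8 groups, by the gap between the highest or lowest tumour and its nearest neighbour over the whole range. Such a gap passed the 95% limit of Dixon's test in 10 of 80 sets. That limit flags about 1 in 20 sets of independent, normally distributed values. The 80 sets are not independent, since the 10 genes moved together within tumours, and CPM was not put on a log scale. The 10 flags can therefore not be set against that rate.

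In primary tumours given 0 Gy with isotype, 6 of the 10 values came from tumour 4, the highest of its group. These were H2-K1 at 2812.8 CPM (nearest other 1131.8), H2-D1 at 3194.0 CPM (1679.5), Tap1 at 223.9 CPM (96.1), Tap2 at 117.1 CPM (68.4), Psmb8 at 281.9 CPM (161.7) and Psmb10 at 118.4 CPM (65.8). In primary tumours given 0 Gy with anti-PD-1, tumour 1 was the highest for the heavy chains, with H2-K1 at 1870.2 CPM (1164.4) and H2-D1 at 2496.3 CPM (1449.0). Psmb8 passed in 2 further groups. Its lowest allograft given 0 Gy with isotype, tumour 4, stood at 175.0 CPM (nearest other 269.4), and its highest primary tumour given 20 Gy with isotype, tumour 5, stood at 557.6 CPM (351.5).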

How the results depend on the processing

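The 10 calls with dose in primary tumours given isotype were made under all 8 other settings and with each of the 16 tumours left out. The 3 calls of the allograft dose comparison with isotype became 9 with DESeq2, 0 with the Xist covariate (chosen after seeing the data), 0 with all 48 samples in 1 fit, 0 with the identifier digit as covariate and 1 with only the 2 groups compared, and 0 to 8 with a tumour left out. The 1 of primary tumours against allografts became 2 with DESeq2 and 2 with all 48 samples, and 0 to 7 with a tumour left out. The 4 of the primary dose comparison under anti-PD-1 became 2 without the tumours above 40000 CPM of muscle markers (chosen after seeing the data) and 2 with only the 2 groups, and 1 to 7 with a tumour left out. The 6 of the allograft comparison of 20 Gy plus anti-PD-1 against neither became 0 with all 48 samples and 1 with only the 2 groups, and 2 to 10 with a tumour left out. The 7 of the same comparison in primary tumours ran from 5 to 9 across settings and from 5 to 10 with a tumour left out. The other 10 comparisons had 0 calls and kept 0 under every setting and with each tumour left out, and no dose estimate of the 10 genes changed sign. For the fits with a tumour left out, the share of all genes called is not given here. The causes were not tested.

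Over all genes, the calls moved by more than 1.5 times in several fits. Those of the allograft dose comparison with isotype (912) became 1530 with DESeq2, 500 with the Xist covariate, 372 with all 48 samples and 196 with the identifier digit. Under anti-PD-1 (703) they became 1664 with DESeq2 and 1 with only the 2 groups, and also fell by more than 1.5 times with all 48 samples. The primary comparisons moved to 2188, 2156, 886 and 822 of 1407 (dose under anti-PD-1, with DESeq2, all 48 samples, no muscle-rich tumours and 2 groups) and to 1384 of 2446 (20 Gy plus anti-PD-1 against neither, 2 groups). The other allograft comparison (1714) moved to 2626 with DESeq2, 851 with all 48 samples and 1075 with 2 groups, and primary against allograft (1738) to 2868 with DESeq2.

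No paired analysis was possible because the replicate numbers only follow deposit order. Depth was not varied, and the lowest count of any of the 10 genes in a tumour was 591 (Nlrc5).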
